A study of Mus musculus with 30 samples.

Results

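The 7 genes described here (Gm6958, Pum2, Pim3, Ubl7, Slc35d2, Lasp1 and Dynll1) were selected on measured values: their signal differed between individual mice in the same way in liver, kidney and brain (limma's F-test), after the number in each mouse's name had been taken out. They are 7 of 12159 genes tested and 7 of 78 genes with a probe set called in the same measure. All probe sets that the platform annotation gives to these symbols were used, 24 in all, of which 22 passed a filter on low signal. That F-test of the mouse effect called 9 of the 22 at an adjusted p under 0.05, beside 94 of 22519 probe sets overall (0.417%). That count is the choice itself and shows nothing further. The last probe sets inside this threshold belonged to Foxp1 and Ccdc28a (adjusted p = 0.0492) and the first outside it to Slc4a2 and Atad3a (adjusted p = 0.0509). By this measure Gm6958, Pum2 and Pim3 ranked 2, 3 and 4 and Lasp1, the lowest of the 7, ranked 51.

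The study measured total RNA of 10 male Avy/a mice on Affymetrix arrays, with 1 array each for liver, kidney and brain. All mice carried the viable yellow agouti allele Avy opposite the nonagouti allele a, and tissues were taken on day 22, at weaning. The colony, derived from C3H/HeJ, had been kept by sibling mating with Avy held heterozygous. The groups are 5 coat classes of 2 mice each, numbered 1 and 2, with no treatment named: yellow, then slightly mottled, then mottled, then heavily mottled, then pseudoagouti, the agouti-like coat. The design sought transcripts that vary between individuals and little between tissues. What the number stands for is not stated, so numbers 1 and 2 may mark a batch, a litter or nothing. The 3 arrays with a class and number in common were treated as those of 1 mouse. Tissues were taken whole, so fewer cells of a type and less RNA per cell cannot be told apart.

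The 7 genes have unrelated products. Pum2 is a Pumilio protein that binds motifs in messenger RNAs and represses them. Pim3 is a serine/threonine kinase of the Pim family, Ubl7 a ubiquitin-like protein and Slc35d2 a transporter that carries nucleotide sugars into the Golgi. Lasp1 is a LIM and SH3 domain protein that binds actin, and Dynll1 is a light chain of the dynein motor that also docks to many other proteins. Gm6958 is a predicted gene, and whether its 2 probe sets also match repeated sequence elsewhere in the genome was not tested, so its values are those of the probe sets. Arntl, also called BMAL1, is an activator of the circadian clock that binds E-boxes, and Fkbp5, which glucocorticoids induce, is a co-chaperone of their receptor. Both clock output and glucocorticoid level act on many organs at the same time.

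Promoters are shown for 3 genes that moved together with others of the 7, as 250 bases before an annotated start, 5' to 3' on the gene's strand, from RefSeq (GRCm38.p6). RefSeq windows were found for 6 of the 7 genes, 8 windows in all, and not for Slc35d2. Capitals mark the motif matches.
Pim3, chr15:88861944-88862193, + strand: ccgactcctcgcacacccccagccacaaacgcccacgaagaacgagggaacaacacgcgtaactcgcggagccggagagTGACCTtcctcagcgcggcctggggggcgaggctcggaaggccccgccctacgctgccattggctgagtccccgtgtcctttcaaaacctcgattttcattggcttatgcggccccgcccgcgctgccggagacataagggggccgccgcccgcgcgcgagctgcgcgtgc
Ubl7, chr9:57910736-57910985, + strand: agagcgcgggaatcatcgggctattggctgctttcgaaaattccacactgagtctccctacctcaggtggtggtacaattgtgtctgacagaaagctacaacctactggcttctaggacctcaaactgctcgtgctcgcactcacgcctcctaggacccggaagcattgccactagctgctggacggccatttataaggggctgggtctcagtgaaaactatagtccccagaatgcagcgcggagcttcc
Lasp1, chr11:97799315-97799564, + strand: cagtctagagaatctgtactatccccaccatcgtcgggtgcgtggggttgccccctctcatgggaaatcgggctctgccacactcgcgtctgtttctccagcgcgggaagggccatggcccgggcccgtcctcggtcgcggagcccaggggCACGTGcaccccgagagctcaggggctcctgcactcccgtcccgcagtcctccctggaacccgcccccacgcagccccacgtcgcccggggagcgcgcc
On both strands, 6 motifs were searched: the E-box CACGTG, the D-box TTACGTAA or TTATGTAA, the RORE core AGGTCA, the glucocorticoid response element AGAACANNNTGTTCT, the cAMP response element TGACGTCA and the heat shock element GAANNTTCNNGAA. The Lasp1 window holds an E-box that begins 99 bases before the start, and E-boxes occur in 6.02% of 32851 windows. The Pim3 window holds the RORE core on the opposite strand, read as TGACCT and beginning 171 bases before the start, and 14.0% of windows hold it. The other 6 windows of the genes held none of the motifs. The shares over all windows were 0.931% for the D-box, 0.00913% for the glucocorticoid response element, 1.55% for the cAMP response element and 0.47% for the heat shock element. No 2 motifs overlapped in these windows. A match is a match of letters only.

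Signals are the authors' MAS5 values, in which every array has the same trimmed mean of 500. Each gene is represented by the probe set of its own with the lowest p for the mouse effect. Deviations are on the log2(signal + 16) scale, taken from the mean of the 5 mice with the same number in the same tissue, so that a difference between numbers cannot enter them.

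Pum2, Pim3 and Ubl7 followed one order of mice: yellow 2 was highest and mottled 2 lowest in the mean of the 3 tissues. Pim3 signal in liver ran from 578 in mottled 2 through a median of 979 to 2530 in yellow 2. Kidney signals ran from 1673 through 3237 to 5702 and in brain from 405 through 587 to 774, again with mottled 2 lowest and yellow 2 highest. The 3 tissues thus gave the same 2 extreme mice, although the spread in brain was narrower. With the number removed, the mouse means of Pim3 spanned 1.59 on the log2 scale, from 0.69 in yellow 2 to -0.90 in mottled 2. Pseudoagouti 1 (0.40), pseudoagouti 2 (0.36) and slightly mottled 1 (0.26) also lay above the mean, and heavily mottled 1 (-0.39), mottled 1 (-0.28) and slightly mottled 2 (-0.24) below it. In 9 of 10 mice the sign was the same in all 3 tissues.

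Pum2 signal in liver ran from 289 in heavily mottled 1 through a median of 416 to 1166 in pseudoagouti 2. The kidney range was 595 in mottled 2 through 1037 to 1838 in yellow 2, and the brain range was 796 in heavily mottled 1 through 1209 to 2132 in yellow 2. Yellow 2 and pseudoagouti 2 stood apart from the other mice in liver and kidney. Pum2 mouse means spanned 1.41, from 0.66 in yellow 2 and 0.60 in pseudoagouti 2 to -0.76 in mottled 2, with the same sign in all tissues in 7 mice. Ubl7 signal ran from 421 in mottled 2 through a median of 683 to 975 in pseudoagouti 2 in liver. Kidney values went from 627 through 1007 to 1462 between the same low mouse and yellow 2, and in brain from 788 in heavily mottled 1 through 1250 to 1977 in yellow 2. Ubl7 spanned the least of the 3, 1.12, and mottled 2 (-0.71) lay far below slightly mottled 2 (-0.19), the next mouse. Over the 10 mouse means Pum2 correlated with Pim3 at r = 0.94 and with Ubl7 at 0.94, and Pim3 with Ubl7 at 0.94, given as a description since arrays and mice are shared.

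Gm6958, Slc35d2 and Lasp1 followed another order, with mottled 1 and heavily mottled 1 at the top and yellow 1 at the bottom. Gm6958 signal ran from 255 in yellow 1 through a median of 596 to 1073 in mottled 1 in liver. In kidney it ran from 225 through 411 to 1353 and in brain from 68.2 through 142 to 266, between the same 2 mice. Kidney of mottled 1 was more than any other kidney by a wide margin, the next being 590 in heavily mottled 2. Gm6958 had the widest span of the 7, 2.09 on the log2 scale, from 1.13 in mottled 1 to -0.95 in yellow 1. The sign was shared by the 3 tissues in 9 mice.

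Slc35d2 signal in liver ran from 871 in slightly mottled 2 through a median of 1349 to 2807 in heavily mottled 1. Its kidney signal went from 262 in yellow 1 through 413 to 578 in mottled 1, and in brain from 41.2 in yellow 1 through 122 to 239 in heavily mottled 1. Brain signals of this gene are low, and the value of yellow 1 lies well under the other 9, the next being 106 in pseudoagouti 1. Slc35d2 mouse means spanned 1.41, from 0.65 in heavily mottled 1 and 0.51 in mottled 1 to -0.76 in yellow 1, and 8 mice kept their sign over tissues. Lasp1 signal ran from 312 in pseudoagouti 1 through a median of 630 to 684 in mottled 2 in liver. In kidney it ran from 190 in slightly mottled 1 through 411 to 537 in pseudoagouti 2, and in brain from 196 in pseudoagouti 1 through 478 to 691 in mottled 1. In liver, Lasp1 signals of mice numbered 1 (312 to 621) and numbered 2 (639 to 684) did not overlap, whereas in kidney (190 to 482 and 326 to 537) and brain (196 to 691 and 420 to 597) they did. Number 2 mice exceeded number 1 mice by 0.61 on the log2 scale in the mean of tissues. This holds for 1456578_x_at: at the other Lasp1 probe sets number 2 minus number 1 ran from -0.64 (1448207_at) to 0.60 (1438633_x_at). In liver 1448207_at did not overlap either, but with number 1 mice higher (273 to 645 and 97.4 to 256). The share of all probe sets without overlap between the numbers was not counted, so whether this is unusual cannot be told. With the number removed, 1456578_x_at of Lasp1 spanned 1.24, from 0.75 in mottled 1 and 0.50 in heavily mottled 1 to -0.50 in yellow 1 and -0.49 in pseudoagouti 1. The spread lay among number 1 mice, while the 5 number 2 mice stayed between -0.23 and 0.10, and only 4 of 10 mice kept their sign in all tissues. Gm6958 correlated with Slc35d2 at r = 0.92 and with Lasp1 at 0.79 over the mouse means, and Slc35d2 with Lasp1 at 0.77.

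Dynll1 ran against Gm6958, Slc35d2 and Lasp1 (r = -0.75, -0.78 and -0.79). Its liver signal ran from 1798 in heavily mottled 1 through a median of 2565 to 3939 in slightly mottled 1. In kidney it ran from 3727 in yellow 2 through 5419 to 9949 in slightly mottled 1, and in brain from 6198 in heavily mottled 1 through 8402 to 14190 in yellow 1. Number 2 mice were lower than number 1 mice by a mean of 0.42 (number 2 minus number 1, -0.42). At 1417339_a_at and 1456125_a_at this difference was -0.27 and -0.26, but at the dim 1440278_at it was 0.43. With the number removed Dynll1 spanned 0.999, from 0.44 in slightly mottled 1 to -0.56 in heavily mottled 1, with the same sign in all tissues in 9 mice. Against Pum2, Pim3 and Ubl7 its r was -0.02, 0.13 and -0.12.

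**Figure D1:**
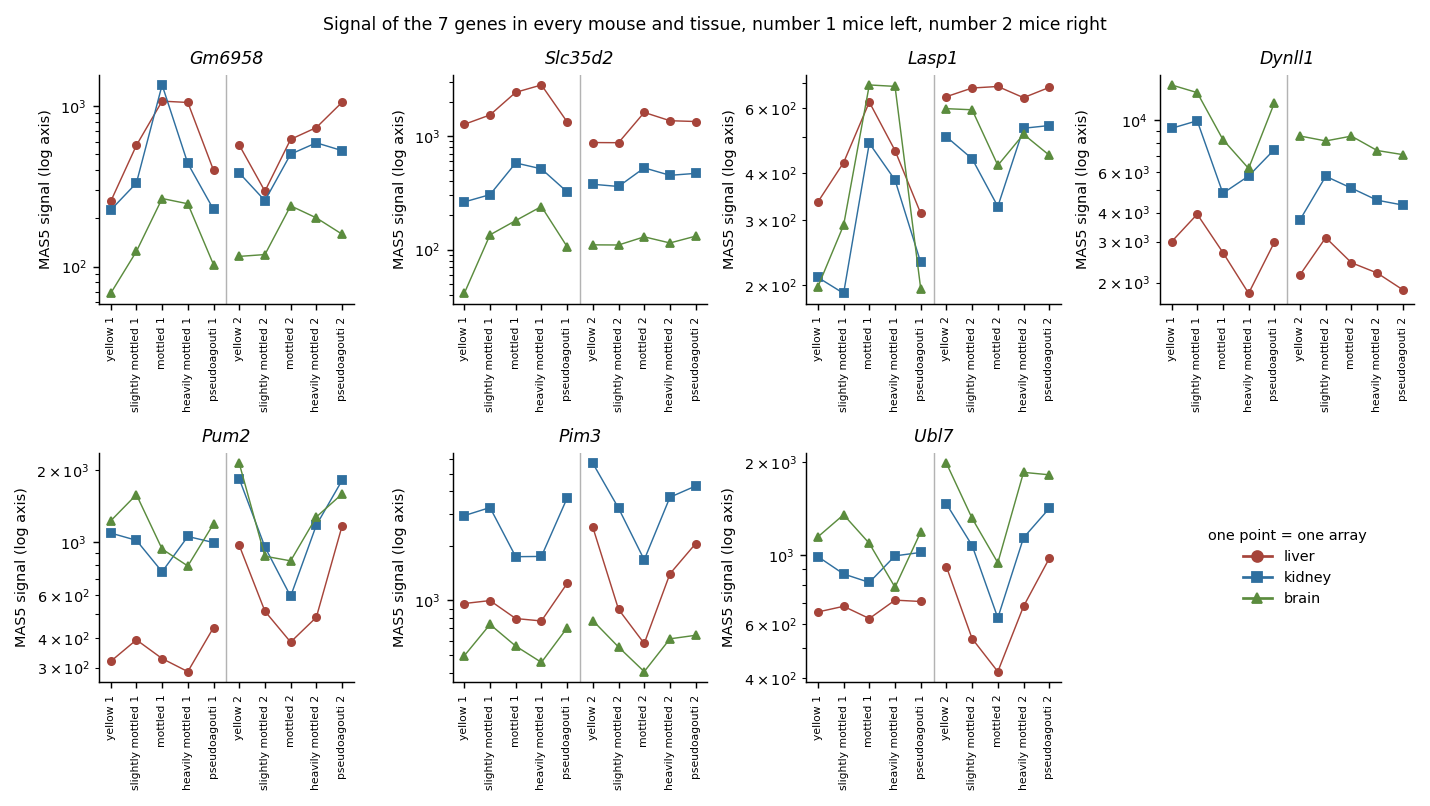
MAS5 signal (log axis) of the 7 genes in each of the 10 mice, 1 point per array, with liver, kidney and brain as separate lines and number 1 mice left of the grey line. The lines of the 3 tissues run in parallel over most mice, as for Pim3, where mottled 2 is lowest and yellow 2 highest in each tissue.

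**Figure D2:**
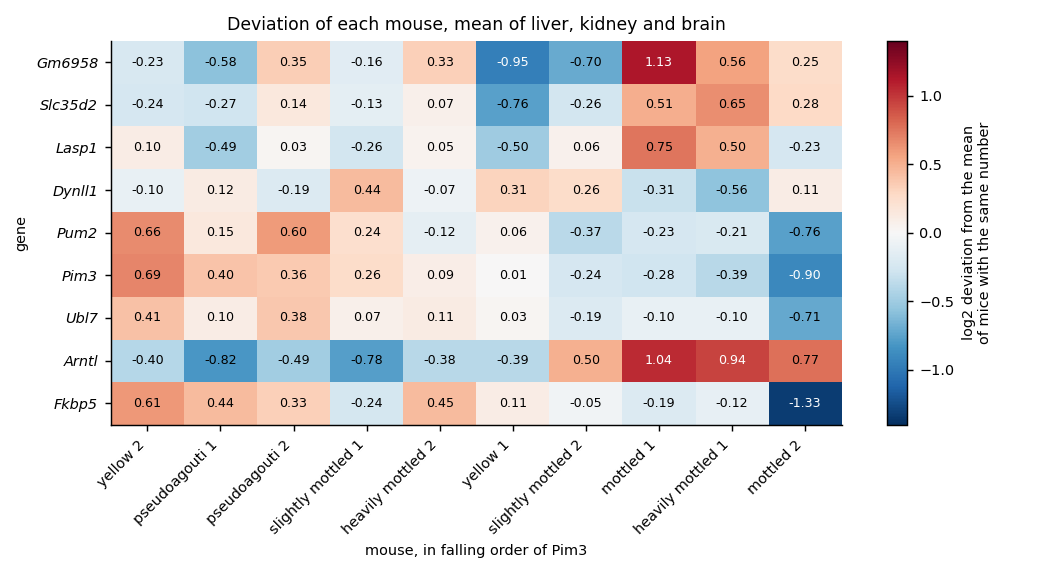
Log2 deviation of each mouse from the mean of the mice with the same number, averaged over liver, kidney and brain, for the 7 genes and for Arntl and Fkbp5, with mice in falling order of Pim3. Pum2, Pim3 and Ubl7 are highest in yellow 2 and lowest in mottled 2, while Gm6958, Slc35d2 and Lasp1 are highest in mottled 1 or heavily mottled 1.

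The tissues shared these orders to an unequal degree. Between liver and kidney the correlation of number-removed values over the 10 mice ran from 0.68 for Lasp1 to 0.93 for Slc35d2. Between liver and brain it ran from 0.74 for Ubl7 to 0.85 for Lasp1, and between kidney and brain from 0.71 for Ubl7 to 0.88 for Pim3. These values were part of the choice of the genes. The number also set Pum2 (0.43 higher in number 2), Pim3 (0.31) and Ubl7 (0.23) apart, while for Gm6958 the difference was 0.11 and for Slc35d2 -0.15. Several of these means join unlike tissues. For Slc35d2 number 2 minus number 1 was -0.59 in liver, 0.18 in kidney and -0.05 in brain. In the same order it was 0.85, 0.26 and 0.17 for Pum2, 0.47, 0.44 and 0.01 for Pim3, and -0.01, 0.23 and 0.47 for Ubl7.

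Whether a gene's other probe sets gave the same order of mice is a check that the choice did not use for those not called. For Gm6958 the second probe set (1435628_x_at) followed the first (1426936_at) at r = 0.96 over mouse means, with a span of 1.93. In liver, kidney and brain r was 0.93, 0.90 and 0.83. The highest and lowest mouse of the mean were the same, but the lowest, yellow 1, rests on brain. Its brain signal at the second probe set was 10 (deviation -2.24), where the brain mean was 130. In liver and kidney slightly mottled 2 was lowest there (-1.02 and -0.65). For Dynll1, 1456125_a_at and 1417339_a_at followed 1448682_at at 0.99 and 0.91, both themselves called, while the dim 1440278_at, with a mean signal of 183, gave 0.40.

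Pum2 and Pim3 differed between probe sets. The Pum2 order came from 1418015_at (mean signal 846), whereas the brighter 1418016_at (2413) and 1418017_at (1635) gave r of -0.35 and -0.15 to it. Those 2 probe sets spanned 0.25 and 0.40 between mice, against 1.41. For Pim3 the brighter 1437100_x_at (4019) gave r = 0.25 to 1451069_at (1244) and spanned 0.52, with pseudoagouti 1 highest and mottled 1 lowest. The untested dim probe sets, 1441448_at of Pum2 (62.8) and 1438956_x_at of Pim3 (118), gave -0.66 and -0.76. The mouse effects of Pum2 and Pim3 are therefore statements about 1 probe set each.

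Lasp1 has 9 probe sets, 7 of them with the suffix _x_at, whose probes may also match other transcripts. The called one, 1456578_x_at, has a mean signal of 432, below all others except 1448207_at (305). Only 1456469_x_at (514) followed it closely over mouse means, at r = 0.97, although in liver alone their r was -0.31. The other 7 gave 0.03 to 0.50, and 1438634_x_at, the brightest (4044), gave 0.20 with mottled 2 highest and yellow 2 lowest. Ubl7 and Slc35d2 have 1 probe set each, so this could not be examined for them.

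**Figure D3:**
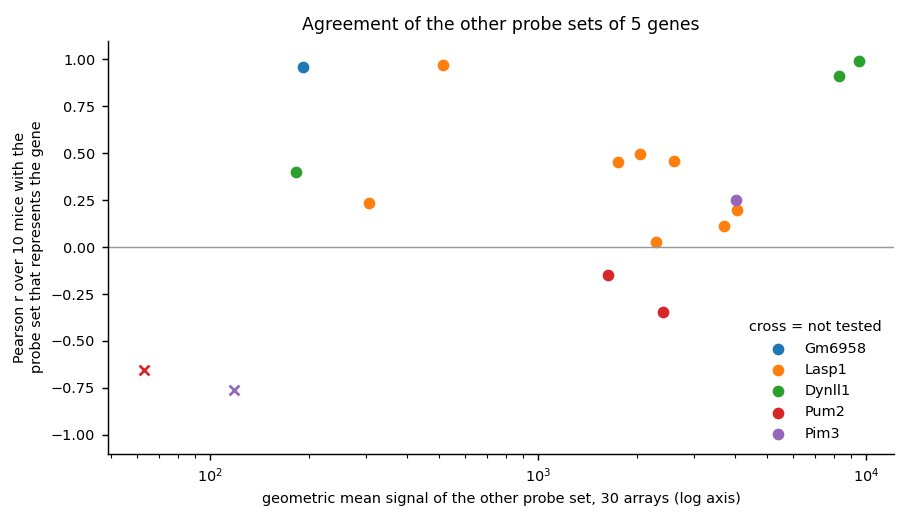
Pearson r over 10 mice between the probe set that represents each gene and its other probe sets, against the geometric mean signal of the other probe set (log axis), for 5 genes. Dynll1 and Gm6958 have probe sets at 0.91 or above, whereas those of Pum2 lie below 0 and the tested probe set of Pim3 is at 0.25.

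The size and direction of tissue differences were not used in the choice, apart from the low-signal filter on the highest tissue mean. The F-test of the mouse effect does favour genes with little spread left between tissues within mice. That spread also enters the SEs and p-values of the tissue differences, so these are not independent of the choice. Limma within mice called a tissue difference at an adjusted p under 0.05 and a log2 difference of at least 1. Slc35d2 was highest in liver: liver exceeded kidney by 1.80 ± 0.13 (SE) and brain by 3.41 ± 0.13, and kidney exceeded brain by 1.62 ± 0.13 (adjusted p 7.81e-12, 4.67e-18 and 3.44e-11; 10 mice). Gm6958 was lower in brain, by 1.86 ± 0.14 against liver and 1.37 ± 0.14 against kidney (adjusted p 2.84e-12 and 1.47e-09), while liver minus kidney, 0.49 ± 0.14, stayed under the required size. Pim3 was highest in kidney, with liver minus kidney at -1.41 ± 0.12 and kidney minus brain at 2.31 ± 0.12 (adjusted p 5.5e-11 and 1.13e-15). Liver minus brain was 0.91 ± 0.12.

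Dynll1 was lowest in liver, with liver minus kidney at -1.17 ± 0.09 and liver minus brain at -1.82 ± 0.09 (adjusted p 1.13e-11 and 5.17e-16). Pum2 was lowest there too, at -1.15 ± 0.12 and -1.29 ± 0.12 (adjusted p 7.07e-09 and 3.58e-10). At the probe set that represents Pum2, kidney and brain levels did not differ beyond their spread (-0.14 ± 0.12, adjusted p = 0.281). At the brighter 1418016_at kidney was lower than brain (-0.41 ± 0.08, limma, adjusted p = 4.01e-05), though under the required size. At 1418017_at kidney minus brain was -0.18 ± 0.09 (limma, adjusted p = 0.0646). At the probe sets that represent them, Ubl7 differences were at most 0.92 in size and those of Lasp1 at most 0.54. Neither was therefore called there in any pair of tissues. The other Lasp1 probe sets gave unlike values between liver and kidney: 1456469_x_at was called higher in liver (1.34 ± 0.22, adjusted p = 6.32e-06), and 1438633_x_at (-0.61 ± 0.10) and 1455470_x_at (-0.48 ± 0.07) had the opposite sign. Gm6958 at its second probe set had 1.24 ± 0.20 for liver minus brain, also called, and 0.87 ± 0.20 for kidney minus brain, under the required size. In all, 4 of 7 genes were called between liver and kidney (1 higher in liver, 3 lower), where 28.5% of all probe sets were called. Between liver and brain it was 4 of 7 (2 higher, 2 lower) against 50.6%, and between kidney and brain 3 of 7, all higher in kidney, against 42.6%. With 7 genes these shares are not set against the background further. The median difference of the 7 was -0.57, 0.31 and -0.14 in these pairs, beside -0.13, -0.15 and 0.03 over all probe sets. At the brightest probe set of each gene, Pum2 (-0.77) and Dynll1 (-0.81) fell under the required size between liver and kidney. With quantile normalisation Pum2 (-0.93) did so.

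**Figure D4:**
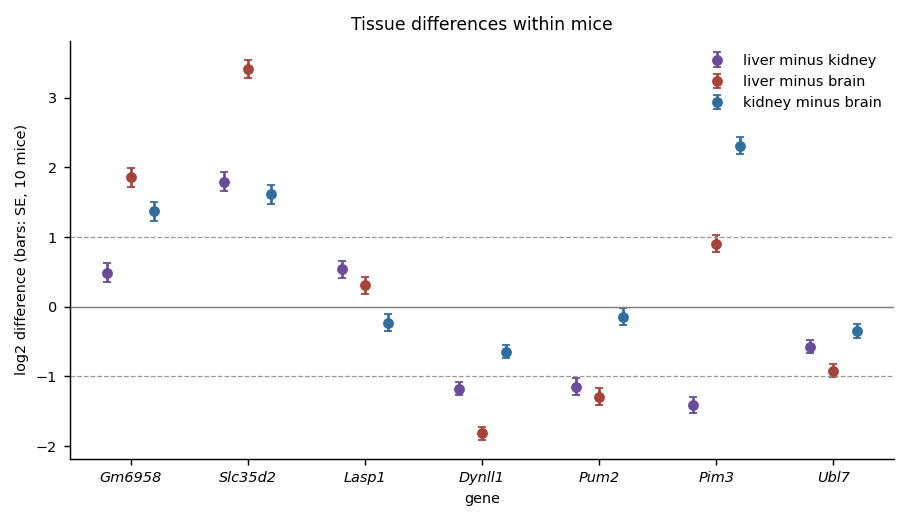
Log2 tissue differences within mice for the 7 genes, as points with bars of 1 SE from limma over 10 mice, with dashed lines at a difference of 1 in either direction. Slc35d2 lies above 1 in all 3 pairs, and Ubl7 and Lasp1, at the probe sets that represent them, lie between the dashed lines in all 3.

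Coat class was not used in the choice, and no coat slope of the 7 genes passed the test. Gm6958 in liver had signals of 255 and 572 in yellow mice, 569 and 295 in slightly mottled, 1073 and 621 in mottled, 1053 and 734 in heavily mottled and 398 and 1055 in pseudoagouti mice. The values of each class overlapped with those of another. The slope per step from yellow to pseudoagouti was 0.26 ± 0.12 (SE, limma, unadjusted p = 0.0593, adjusted p = 0.9998). That was the smallest p in any tissue among the probe sets that represent the 7. At another Lasp1 probe set, 1456309_x_at, the kidney slope was -0.18 ± 0.09 (limma, unadjusted p = 0.0589). In the mean of tissues the lowest p from limma among the representing probe sets was that of Slc35d2 (slope 0.14 ± 0.07, unadjusted p = 0.0762, 10 mice). The second Gm6958 probe set, 1435628_x_at, had 0.20 ± 0.10 (limma, unadjusted p = 0.0590).

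Limma called 0 of 7 genes in the mean of tissues and in each tissue, and at an unadjusted p under 0.05 it was also 0 of 7. Over all probe sets it called 1 in the mean of tissues (0.00444%), 0 in liver (0%), 1 in kidney (0.00444%) and 0 in brain (0%). At an unadjusted p under 0.05 those counts were 428, 536, 465 and 326. The median slope of the 7 was 0.01 in the mean of tissues, beside 0.00 over all probe sets. An interaction term asked whether slopes differed by tissue, and it was called for 0 of 7 (adjusted p 0.9997 for each; smallest unadjusted p 0.408).

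Arntl did not spread evenly over the mice. Its deviations were 1.04 in mottled 1, 0.94 in heavily mottled 1, 0.77 in mottled 2 and 0.50 in slightly mottled 2, and the other 6 mice lay between -0.38 and -0.82, with none in the gap of 0.88. A correlation over all 10 mice would mainly describe that gap, so none is given. Pim3, Pum2 and Ubl7 lay below the mean of their number in each of the 4 mice with the highest Arntl. Pim3 and Ubl7 lay above it in the 6 others, and Pum2 in 5 of them. Gm6958, Slc35d2 and Lasp1 lay above it in 3 of the 4 and Dynll1 in 2. Of the 6 others, Gm6958 and Slc35d2 lay above it in 2, and Lasp1 and Dynll1 in 3.

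The slope of a gene's mouse mean on that of Arntl, with the number as a term, was fitted over all probe sets. Since the genes were chosen for mouse differences shared by tissues, and with these relations known, the values are descriptive. Pim3 changed by -0.52 ± 0.11 (SE) log2 per log2 of Arntl (limma, adjusted p = 0.0398), 1 of 7 genes under 0.05, where 1.32% of all probe sets were. Pum2 (-0.43 ± 0.12, adjusted p = 0.0895) and Ubl7 (-0.29 ± 0.10, 0.135) had slopes of the same sign above the threshold. Lasp1 (0.38 ± 0.12, 0.114), Slc35d2 (0.39 ± 0.13, 0.127) and Gm6958 (0.48 ± 0.21, 0.230) had positive slopes, and Dynll1 a negative one (-0.22 ± 0.11, 0.284). Within the 6 mice below the gap, r with Arntl was -0.15 for Pim3, 0.06 for Pum2, 0.35 for Ubl7, 0.18 for Gm6958, -0.07 for Slc35d2, 0.52 for Lasp1 and -0.50 for Dynll1. Within those 6 mice the r of Lasp1 and Dynll1 were the largest in size and had the sign of their slopes. The smaller r of Pim3 and Gm6958 also had the sign of their slopes, and those of Pum2, Ubl7 and Slc35d2 did not. Without mottled 1 and heavily mottled 1, the highest of Arntl, r over the other 8 mice was 0.09 for Gm6958, 0.26 for Lasp1, 0.32 for Slc35d2 and 0.03 for Dynll1, so these directions rest largely on those 2 mice. It was -0.85 for Pim3, -0.78 for Pum2 and -0.80 for Ubl7, over mice that still lie on both sides of the gap. Each number holds 5 mice, too few for a value of its own, but the sign of r differed between the numbers for Gm6958, Lasp1 and Dynll1. It was the same in both numbers for Pim3, Pum2, Ubl7 and Slc35d2. The Pim3 call had an adjusted p of 0.0447 and 0.0496 without yellow 2 and without heavily mottled 1. It was lost when any of the other 8 mice was left out (0.0507 to 0.0897), when the number was kept (0.160) and at 1437100_x_at (0.366). With the dimmer Arntl probe set it was 0.962. With each array's highest signal as a covariate, Pim3 (0.00815), Pum2 (0.0291) and Ubl7 (0.0342) were all under the threshold.

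Fkbp5 had its own extreme: mottled 2 lay at -1.33, with the next lowest mouse at -0.24 and yellow 2 highest at 0.61. Ubl7 had a slope on Fkbp5 of 0.52 ± 0.09 (limma, adjusted p = 0.0685), Pim3 0.72 ± 0.13 (0.0873) and Pum2 0.60 ± 0.15 (0.173). None passed, 0 of 7, and limma called 0 of 22517 probe sets (0%), with 3175 at an unadjusted p under 0.05. Pearson's r over mouse means with the number removed was 0.92 for Ubl7, 0.87 for Pim3 and 0.76 for Pum2, and Spearman's rho was 0.81, 0.75 and 0.60. As with Arntl, these are descriptions with no test, since Fkbp5 and the genes were picked for such mouse differences. Without mottled 2 and yellow 2 the r fell to 0.64 for Ubl7, 0.61 for Pim3 and 0.38 for Pum2, so the relations rested largely on those 2 mice. With Fkbp5 and the gene read in different tissues, the 6 tissue pairs gave r from 0.72 to 0.93 for Ubl7, 0.63 to 0.88 for Pim3 and 0.50 to 0.86 for Pum2, which adds no support, since all were chosen for an order of mice shared by the tissues. For Gm6958, Slc35d2, Lasp1 and Dynll1 r was -0.24, -0.36, 0.00 and -0.14. Leaving out slightly mottled 1 put Pim3 under the threshold (0.77 ± 0.10, adjusted p = 0.0361). Fkbp5 itself had a negative slope on Arntl over these mice, which was not called (-0.45 ± 0.17, limma, adjusted p = 0.182). Among the mice with high Arntl, Fkbp5 lay far below the mean in mottled 2 only. It was -0.19 in mottled 1, -0.12 in heavily mottled 1 and -0.05 in slightly mottled 2. The relations of a gene with Arntl and with Fkbp5 are therefore not taken as separate.

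**Figure D5:**
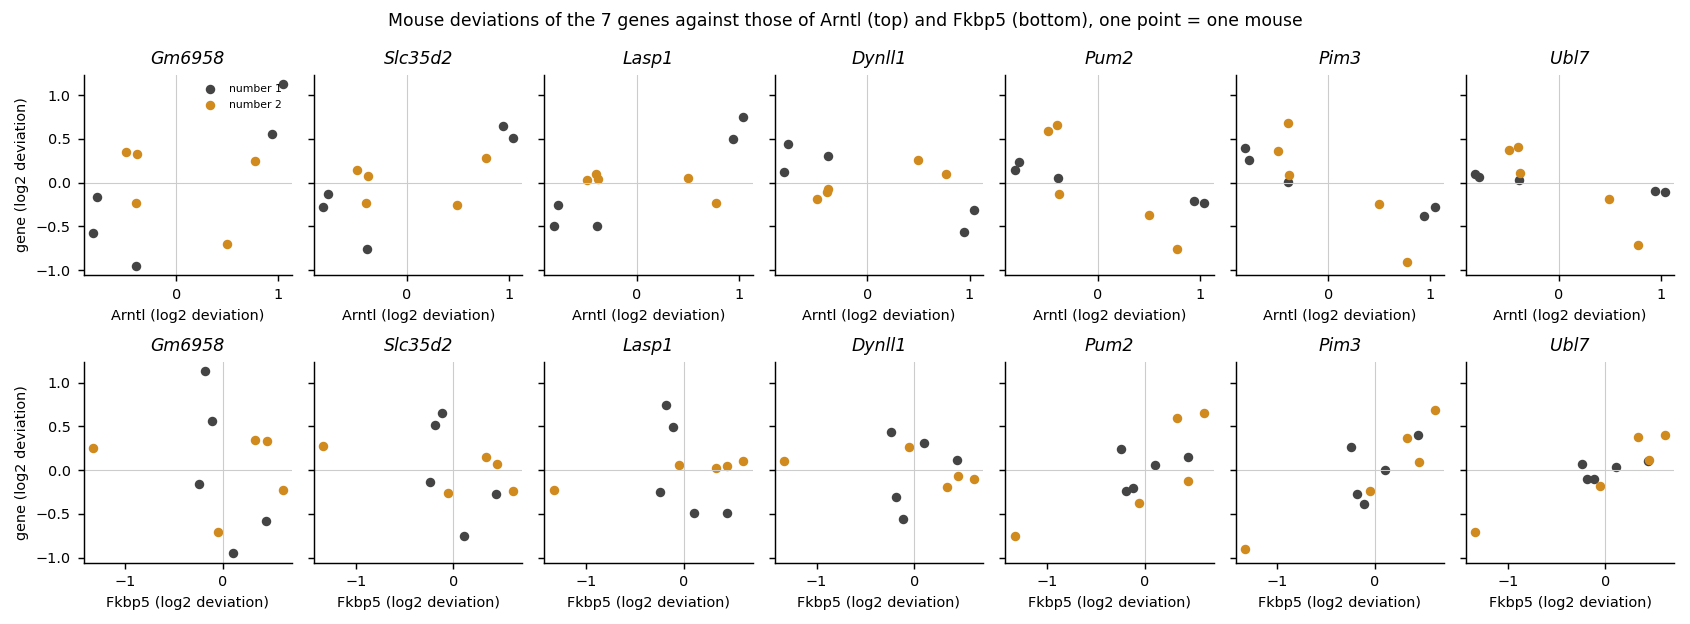
Log2 deviations of the 7 genes against those of Arntl (top) and Fkbp5 (bottom) with the number removed, 1 point per mouse, coloured by number. Arntl leaves a gap between 4 high and 6 low mice, and in the panels of Pum2, Pim3 and Ubl7 against Fkbp5 mottled 2 stands alone at the lower left.

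Of the core clock and clock output genes, 9 of 14 tested had a slope on Arntl under the threshold, 8 of them negative, beside 1.32% of all probe sets. Over all probe sets the 298 calls became 20 with the number kept and 0 with the dimmer Arntl probe set, so the list counts hold for the brighter one with the number removed. Npas2, a paralogue of Clock that also pairs with Arntl, was positive (1.05 ± 0.14, adjusted p = 0.00512). Dbp, a clock output factor (-1.19 ± 0.09, 6.7e-05), Per2, a repressor of the clock (-0.96 ± 0.11, 0.00214), Nr1d2, Ciart, Per1, Per3, Tef and Hlf were negative. The median slope of the list was -0.47, beside 0.00 over all probe sets, and its slopes ran from -1.19 (Dbp) to 1.05 (Npas2). Whether Pim3 shares a cause with these genes was not tested, and its slope is that of 1 probe set. Of the glucocorticoid-induced genes 3 of 16 were under the threshold, all negative: Tsc22d3 (-0.47), Klf9 (-0.33) and Lcn2 (-0.60). Of the relatives and partners of the 7 genes, 1 of 17 was, Dync1h1, the dynein heavy chain (-0.24 ± 0.05, adjusted p = 0.0475). Their median slope was -0.03. On Fkbp5 none of 15, 15 and 17 tested members passed. Beside 0.417% of all probe sets, the mouse effect itself was called for 4 of 15 clock genes (Arntl, Npas2, Per2 and Nr1d2), 2 of 16 glucocorticoid-induced genes (Fkbp5 and Sult1a1) and 0 of 17 relatives and partners, which include Pim1, Pim2 and Dynll2.

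The genes whose pattern was most like each of the 7 were taken over 30 arrays after removal of tissue and number means. Gm6958 was nearest to Slc35d2 (r = 0.81) and Gstm1 (0.80), and Slc35d2 to Gm6958 (0.90, at its second probe set) and Ccdc162 (0.83). Pum2 was nearest to Psme3 (0.95) and Hdgf (0.93), Ubl7 to Atg9a (0.93) and Pum2 (0.91), and Pim3 to Edrf1 and Imp3 (both 0.85). Lasp1 was nearest to Lce1i and Hdhd5 (both 0.84), and Dynll1 to Septin7 (0.89) and Zfr (0.87). So Gm6958 with Slc35d2, and Ubl7 with Pum2, were among the nearest of all probe sets tested. Arrays of the same mouse share their source, and these are descriptions.

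The marker lists placed each tissue as labelled. Of 10 markers each, 9 were on the array, and none of the 9 was below the filter in its own tissue: summed signals were 214730 to 319549 for liver, 85701 to 164460 for kidney and 62587 to 123847 for brain. Liver markers summed to 1393 to 32295 in brain, where 8 of 9 were below the filter, and the list holds Ttr, which the choroid plexus also makes. Array medians lay at 105 to 145 for liver, 114 to 153 for kidney and 138 to 205 for brain. Some lists moved with the genes over the mice of a tissue with the number removed. The r named here were picked for their size from every gene, marker list and tissue, and others of like size are not named. Dynll1 ran with the brain markers in brain (r = 0.91), and Lasp1 (-0.80), Gm6958 (-0.70) and Slc35d2 (-0.70) ran against them. Pum2, Pim3 and Ubl7 had 0.57, 0.43 and 0.45. The kidney markers, 7 of 9 below the filter in brain, gave -0.78 for Dynll1 and 0.76 for Lasp1 there. Brain markers summed to 1202 to 1887 in liver (8 of 9 below the filter) and 513 to 1048 in kidney (9 of 9). Gm6958 ran with the blood and erythroid markers in liver (0.78) and kidney (0.76) but at 0.29 in brain. That list has 5 of 10 genes on the array, with sums of 4409 to 15766 in liver (2 of 5 below the filter), 2551 to 8100 in kidney (2 of 5) and 758 to 2116 in brain (3 of 5). Dynll1 ran against that list in kidney (-0.83). In liver Pum2 (-0.78), Pim3 (-0.62) and Ubl7 (-0.62) ran against the liver markers, and the other genes had -0.08 to 0.27. The part of these cell types in the results was not tested.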

How the data were processed

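Total RNA of liver, kidney and brain from 10 mice was measured on Affymetrix mouse genome arrays. The deposited values are linear signal intensity per probe set, made by the authors with MAS5, per the submitters' processing notes. The version and genome build are not given in the sources used here. The trimmed mean (2% at each end) is 500 in all 30 columns, which are all distinct. The file gives no detection calls, so the number of arrays sets the precision.

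The log2 scale was log2(signal + 16). From 45101 probe sets the 64 controls were removed. The 22519 whose highest tissue mean reached a signal of 241.6, the median of that quantity, were tested. Of all but the controls, 34945 have 1 symbol, 932 several and 9160 none. Limma 3.58.1 in R 4.3.3 was fitted on the whole table with eBayes and a trend, with Benjamini-Hochberg adjustment and a threshold of 0.05. The mouse effect was the F-test of mouse coefficients after tissue by number terms, tissues were compared with mouse as a fixed block, and coat slopes were fitted on a scale of 0 to 4. Associations used the mean of a mouse's 3 arrays with the number as a term. Fits were tested on simulated data. P-values of coat slopes and associations are set against the spread between these mice. Those of the mouse effect, the tissue differences and the interaction of slope and tissue are set against the spread left between tissues within mice.

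The members and gene lists were chosen with earlier results of these data known. Genes named are the 7 members, for each the 2 genes most alike, and list members called in a comparison. The lists of clock genes, of glucocorticoid-induced genes and of relatives and partners of the members held 17, 16 and 21 genes, some of which are not reported here. Marker lists covered the 3 tissues, erythroid cells, immune cells, fat and the choroid plexus. Sums for fat, immune and choroid plexus markers were 6184 to 24585, 3165 to 4680 and 26887 to 38300 in liver. In kidney they were 16117 to 44119, 4693 to 8041 and 28233 to 46316, and in brain 1215 to 2023, 968 to 1977 and 2605 to 36002.

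Alternatives were other offsets, filters, quantile normalisation, probe sets without shared-sequence suffixes, the brightest probe set, the number or mouse as a block or not, array quality covariates, unordered classes, another probe set of Arntl or Fkbp5, and each mouse left out.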

Additional observations from a re-analysis of the deposited data

Results flagged for a closer look

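In 2 of 21 combinations of gene and tissue, 1 mouse stood apart from the other 9 by the gap between it and its neighbour as a share of the whole range; chance gives this in about 1 of 20 groups. Gm6958 in kidney was highest in mottled 1, at a signal of 1353 against 590 for the next mouse, and the gap was 0.469 of the log2 range. Slc35d2 in brain was lowest in yellow 1, at 41.2 against 106 for the next mouse, and the gap was 0.507 of the range.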

How the results depend on the processing

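The counts of genes called between tissues kept their directions, and 0 of 7 genes had a coat slope in every alternative run. At the brightest probe set, the mouse effect was called for 4 of 7 and liver minus kidney for 2. With each mouse left out in turn, the mouse effect was called for 3 to 7 genes, with 17 to 127 probe sets overall; 3 was reached without mottled 2, where Ubl7 (adjusted p = 0.351), Pum2 (0.0650), Pim3 (0.0657) and Lasp1 (0.0686) were lost. Lasp1 was also lost without mottled 1 (0.187), Slc35d2 without mottled 1 (0.0558), Ubl7 without yellow 2 (0.0748) and Dynll1 without heavily mottled 1 (0.0631) or slightly mottled 1 (0.0645). Lasp1 was further lost without yellow 1, pseudoagouti 1, yellow 2 or slightly mottled 2 (0.0635 to 0.0858), with no filter (0.0546), with quantile normalisation (0.0506), with the highest signal as a covariate (0.0857) and with the Gapdh ratio as one (0.0569). Tissue counts were 4, 4 to 5 and 3 for liver minus kidney, liver minus brain and kidney minus brain with mice left out.

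The association with Arntl was called for 0 genes at the brightest probe set, 0 with no replicate block for the number, 3 with the highest signal as a covariate, 0 with the other Arntl probe set, and 0 to 1 with mice left out. That with Fkbp5 was called for 0 to 1 with mice left out. Over all probe sets the Arntl count of 298 became 20 with no replicate block, 480 with the highest signal as a covariate, 490 with an offset of 64, 492 with quantile normalisation, 172 without shared-sequence suffixes, 0 with the other Arntl probe set and 37 to 429 with mice left out. The Fkbp5 count of 0 became 21 with no replicate block, 10 with the highest signal, 1 with an offset of 64, 1 without the suffixes and 0 to 9 with mice left out. The mouse effect count of 94 became 1531 with no replicate block, 39 with no filter, 52 with the highest signal and 54 with the Gapdh ratio. The coat counts of 1 became 0 with an offset of 1 or unordered classes in the mean of tissues and 0 with unordered classes in kidney. Deviations from class means of same-numbered mice correlated at r over 0.1 in 20 of 20 pairs in liver, 18 of 20 in kidney and 12 of 20 in brain. With 2 mice per class, the deviations of number 2 mice mirror those of number 1 mice. Each pair of number 2 mice thus repeats the r of the matching number 1 pair, so the pairs are not all separate. They deviated together in liver and mostly in kidney, but not in every pair, and the labels do not say what the number marks; the replicate block left the coat count of the 7 genes at 0. The causes were not tested, and the mean brain signals of Slc35d2 (130) and Gm6958 (164) lie below the level of the filter.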
